A study of Mus musculus with 8 samples.

Results

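Lysosomes break down what a cell takes up or discards, and their hydrolases work in an acid lumen. The genes described here encode cathepsins (the proteases of that lumen), LAMPs (the main glycoproteins of the lysosomal membrane) and the V-ATPase, the proton pump that acidifies it. They were chosen by symbol: rows of the deposited table with values whose name is Cts plus 1 letter, Lamp1 to Lamp3, or begins with Atp6v or Atp6ap, leaving out pseudogenes. The rule found 37 of 18835 genes with values: 14 cathepsins, 3 LAMPs and 20 pump genes. Another 10 genes of the same name pattern are listed without values and were not tested, among them the placental cathepsins Ctsj, Ctsm, Ctsq and Ctsr and the pump genes Atp6v1b1, Atp6v1c2, Atp6v1e2, Atp6v1fnb, Atp6v1g3 and Atp6ap1l.

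RNA was sequenced from hearts of male BALB/cAJcl mice, 10 weeks old, in which autoimmune myocarditis had been induced by immunization with cardiac myosin. Of 8 libraries, 4 came from mice injected intraperitoneally with 1 µg per day of VEGF-C C156S, a mutant VEGF-C that activates the lymphatic receptor VEGFR-3, and 4 from mice given PBS. In both groups injections ran from day 7 to day 10 after immunization and hearts were taken in week 3; there were no unimmunized mice among these samples. The series title names lymphatic endothelial cells, but the sample labels give heart, and 8 cardiomyocyte markers averaged between 17.68 and 18.17 on the log2 scale in every library. The labels do not say in words that each library is a separate animal, so p-values measure the spread between these libraries. Totals were 61713842 to 76803952 reads in PBS and 53679737 to 65230480 in VEGF-C.

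Cathepsins fall into 3 chemical classes, named for the residue that cuts: cysteine, aspartic and serine proteases. The V-ATPase is a rotary motor. Its V1 part, on the cytosolic side, burns ATP in a ring of A and B subunits and turns a central shaft, and its V0 part, in the membrane, holds the ring of proteolipids that carries protons past subunit a. In the heart, lysosomes serve both cardiomyocytes, where they complete autophagy, and the macrophages of inflamed tissue, which are rich in cathepsins. In bulk tissue, fewer cells of a type and less RNA per cell cannot be told apart.

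Many lysosomal genes are known targets of the transcription factor TFEB, which binds an E-box (CACGTG, often within TCACGTGA; both are the same on either strand, and the longer contains the shorter) close to the start of the gene. Promoter windows of 300 bases, from 250 before to 50 after a start, were given by RefSeq (GRCm38.p6) for 27 of the 37 members. The core CACGTG was found in 9 of the 27 (33.3%), against 8.09% of 27025 genes with a window: Lamp1, Ctsa, Ctsd, Ctsf, Ctsl, Atp6v0b, Atp6v0d1, Atp6v0e and Atp6v1a. The longer TCACGTGA was found in 5 (18.5%), against 1.12% of genes with a window: Ctsa, Ctsd, Atp6v0d1, Atp6v0e and Atp6v1a. The stretches below run from 140 bases before to 10 bases after the start, with each CACGTG in capitals. The first 4 show how the E-box lies in genes that carry it, and the last 2 belong with Atp6v0d1 to the members past the test threshold for which a window was given.
Lamp1 (chr8:13159021-13159170, + strand): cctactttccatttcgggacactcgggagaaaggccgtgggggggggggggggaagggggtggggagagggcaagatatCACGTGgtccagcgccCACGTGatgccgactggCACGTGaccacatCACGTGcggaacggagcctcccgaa
Ctsd (chr7:142387818-142387967, - strand): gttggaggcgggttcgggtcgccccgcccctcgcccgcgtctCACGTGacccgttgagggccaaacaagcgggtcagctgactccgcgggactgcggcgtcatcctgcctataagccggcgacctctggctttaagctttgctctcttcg
Atp6v1a (chr16:44139250-44139399, - strand): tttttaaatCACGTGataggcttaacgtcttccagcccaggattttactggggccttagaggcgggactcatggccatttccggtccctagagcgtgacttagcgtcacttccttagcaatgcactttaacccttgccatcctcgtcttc
Atp6v0d1 (chr8:105566055-105566204, - strand): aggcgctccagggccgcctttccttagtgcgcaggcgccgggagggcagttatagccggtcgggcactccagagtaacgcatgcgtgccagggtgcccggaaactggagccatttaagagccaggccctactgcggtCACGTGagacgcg
Atp6v0b (chr4:117887320-117887469, - strand): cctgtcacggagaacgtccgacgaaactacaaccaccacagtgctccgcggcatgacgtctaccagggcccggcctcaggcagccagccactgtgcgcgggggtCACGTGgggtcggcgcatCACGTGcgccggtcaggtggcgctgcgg
Atp6v1d (chr12:78861629-78861778, - strand): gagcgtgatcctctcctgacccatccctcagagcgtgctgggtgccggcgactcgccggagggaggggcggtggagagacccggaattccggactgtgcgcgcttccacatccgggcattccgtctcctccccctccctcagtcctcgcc
Lamp1 held 4 copies within 61 bases of its start, Atp6v0b 2, and Ctsd 1 in this stretch with another further upstream. No CACGTG was found in the window of Atp6v1d. A match of letters is a description of the sequence and not evidence of binding.

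The comparison asked how heart tissue of VEGF-C-treated mice differed from that of PBS-treated mice. In hearts given VEGF-C, 3 pump subunit genes rose, Atp6v1d, Atp6v0d1 and Atp6v1g1, by 19.0% to 22.9%, and 3 genes fell, the cathepsin genes Ctsw and Ctse and the pump gene Atp6v0b. The abundant cathepsins Ctsb, Ctsd, Ctsl and Ctss had fold changes between -0.01 and 0.08 on the log2 scale and did not pass. The 3 LAMP genes had positive fold changes and did not pass by limma or limma-voom, with 1 at an unadjusted p under 0.05. In all, 6 of 37 members (16.2%) passed a limma adjusted p of 0.05, against 15.7% of all genes tested. This share is near the background, so the count is not a result about lysosomal genes. At an unadjusted p under 0.05 there were 10 members, against 32.3% of all genes. By direction, 3 members were higher against 7.05% of all genes, and 3 were lower against 8.61%. The groups did not overlap in 10 members, 7 higher and 3 lower, against 23.0% of all genes (11.5% higher and 11.6% lower). Between 3 and 5 members passed when 1 library was left out, 3 of them without VEGF-C replicate 1. By the authors' deposited table, 8 members have an adjusted p under 0.05, against 21.7% of its genes: the same 6, Lamp1 and Atp6v0e2, the last pair higher.

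**Figure D1:**
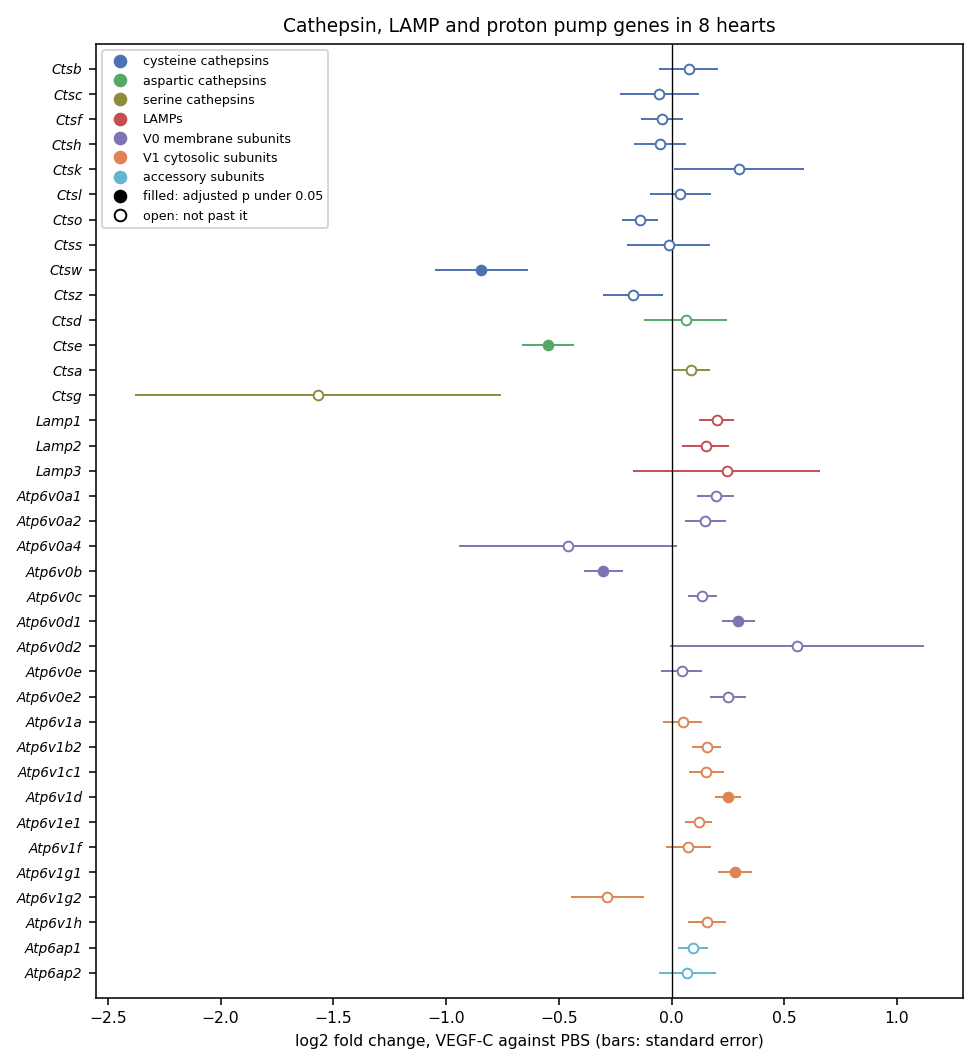
Log2 fold change of VEGF-C against PBS (x axis) for each of the 37 members (y axis), coloured by role, with bars for the standard error of the limma fit. Filled points passed an adjusted p of 0.05: Atp6v1d, Atp6v0d1 and Atp6v1g1 lie right of 0, and Ctsw, Ctse and Atp6v0b left of it.

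The balance of directions moved with the scaling of the libraries. With the authors' size factors 25 of 37 members had positive fold changes (median 0.08, against 0.0013 over all genes). With library totals alone 9 were positive, 0 passed as higher and 4 as lower. Upper-quartile factors left 22 positive, of which 1 passed, and 3 lower calls. The typical gene itself shifted to -0.19 under library totals. Under each of the 4 scalings 25 members lay above the median gene. This count tests nothing, since a scaling moves all genes by nearly the same amount. Rises are therefore stated relative to the typical gene, and at 0.25 to 0.30 the 3 called rises are not much larger than that shift. Because the other scalings shift fold changes down, they put rises to a test but not falls.

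**Figure D2:**
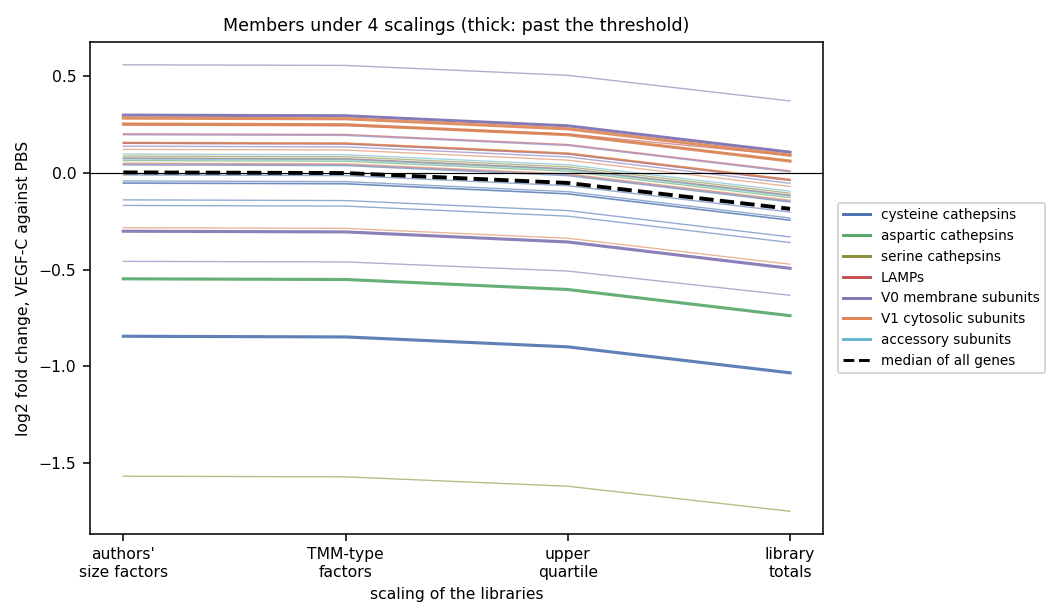
Log2 fold change of each member (lines, coloured by role, thick where past the threshold with the authors' size factors) under 4 scalings of the libraries (x axis). All lines and the median of all genes (dashed) shift down together, from 0.0013 to -0.19 for the median, so that 9 of 37 members stay above 0 with library totals.

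Among the 9 V1 subunit genes, 2 rose and 0 fell (22.2% called, against 15.7% of all genes). Positive fold changes were seen in 8 (median 0.15), and in 2 with library totals. Atp6v1d encodes subunit D, the central shaft that turns inside the ring. It was read at 4596, 4593, 4418 and 4465 normalized counts in PBS replicates 1 to 4 and at 5420, 5439, 5351 and 5297 in VEGF-C replicates 1 to 4. The groups did not overlap, and the spread within each was small: 4518 ± 90.3 against 5377 ± 65.3 (SD, n = 4). The log2 fold change was 0.25 ± 0.06 (SE), with a limma adjusted p of 0.0171. The call held without any 1 library (adjusted p up to 0.0498) but not with library totals (0.489).

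Atp6v1g1 encodes subunit G, part of the outer stalks that hold the ring still. Its counts were 5134, 5334, 6012 and 5309 in PBS and 6802, 7139, 6365 and 6172 in VEGF-C. Each VEGF-C library lay above each PBS library, with PBS replicate 3 and VEGF-C replicate 4 nearest each other. The log2 fold change was 0.28 ± 0.08 (limma adjusted p = 0.0336). It lost its call with upper-quartile factors (0.0931), with library totals (0.478) and when any library but PBS replicate 3 and VEGF-C replicate 4 was left out (adjusted p up to 0.0828).

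The other V1 genes did not pass. Atp6v1b2, the B subunit of the ATP-burning ring outside the kidney, had a fold change of 0.16 ± 0.07 (limma adjusted p = 0.134), and its groups did not overlap. Atp6v1e1, the other stalk subunit, had 0.12 ± 0.06 (0.207), again without overlap. The catalytic subunit gene Atp6v1a stood at 0.05 ± 0.09, with a 95% interval from -0.15 to 0.24. Subunits C (Atp6v1c1, 0.15), H (Atp6v1h, 0.16) and F (Atp6v1f, 0.07) had adjusted p from 0.191 to 0.650. Atp6v1g2, a form of subunit G known from neurons, was the single V1 gene with a negative fold change (-0.28 ± 0.16, adjusted p = 0.250).

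Of the 9 V0 subunit genes, 1 rose and 1 fell (22.2% called, against 15.7% of all genes). Positive fold changes were seen in 7 (median 0.15), and in 4 with library totals. Atp6v0d1 encodes subunit d, which joins the central shaft to the proteolipid ring. It was read at 3511, 4016, 3922 and 3863 normalized counts in PBS and at 5097, 4638, 4531 and 4547 in VEGF-C. The groups did not overlap, and VEGF-C replicate 1 was the highest. The log2 fold change was 0.30 ± 0.07 (limma adjusted p = 0.0214). It lost its call with upper-quartile factors (0.0552), when VEGF-C replicate 1 was left out (0.0572) and with library totals (0.355).

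Atp6v0b went the other way. It encodes the c'' proteolipid, 1 of the kinds of subunit in the ring that Atp6v0d1 caps. Its counts were 5716, 6438, 6991 and 5918 in PBS and 4955, 5666, 4801 and 4883 in VEGF-C. The groups did not overlap, but PBS replicate 1 and VEGF-C replicate 2 were close. The log2 fold change was -0.30 ± 0.09, so that the level fell by 18.9% (limma adjusted p = 0.0387). The call held under all 3 other scalings (adjusted p from 0.0056 to 0.0366), but these shift fold changes down and do not challenge a fall. It was lost when any library but PBS replicate 1 and VEGF-C replicate 2 was left out (up to 0.105). An antisense RNA, Gm12841, which has no values, shares 11.8% of its annotated exon bases, and whether counting used the strand is not stated in the labels. Other members also overlap genes of the opposite strand, among them Ctsl (Gm47123, 26.85%), Ctsb (Fdft1, 12.79%), Ctsa (Pltp, 10.5%) and Lamp1 (Grtp1, 9.31%).

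Atp6v0e2, a small membrane subunit, had a fold change of 0.25 ± 0.08 (limma adjusted p = 0.0553). Its 4 VEGF-C libraries, at 1920 to 2304 normalized counts, lay above the 4 PBS libraries, at 1751 to 1914. Atp6v0c, the main proteolipid of the ring, stood at 0.14 ± 0.07 (0.178), Atp6v0a1 at 0.20 ± 0.08 (0.127), Atp6v0a2 at 0.15 ± 0.09 (0.283) and Atp6v0e at 0.05 ± 0.09 (0.774). Atp6v0d2, the form of subunit d known from osteoclasts and some macrophages, varied widely among PBS libraries, from 37.4 to 304 normalized counts, and had a fold change of 0.56 ± 0.56 (0.530). Without PBS replicate 1 that value was -0.04. The kidney form Atp6v0a4 was read at 15.5 to 80.7 normalized counts in all 8 libraries and did not pass (0.550). The accessory genes Atp6ap1 (0.10 ± 0.07) and Atp6ap2, which encodes the prorenin receptor (0.07 ± 0.13), did not pass.

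Cardiomyocyte markers were read beside the pump genes. Of the 8 markers, 7 had positive fold changes (5 with library totals). By limma 0 passed, with 3 at an unadjusted p under 0.05, and 1 passed by limma-voom. The authors' deposited adjusted p was under 0.05 for 4 of the 8 markers, against 21.7% of all genes that have one. The summed level of the markers was 2732710 to 3665874 normalized counts in PBS and 3652892 to 4080395 in VEGF-C. Their part in the pump results was not tested.

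**Figure D3:**
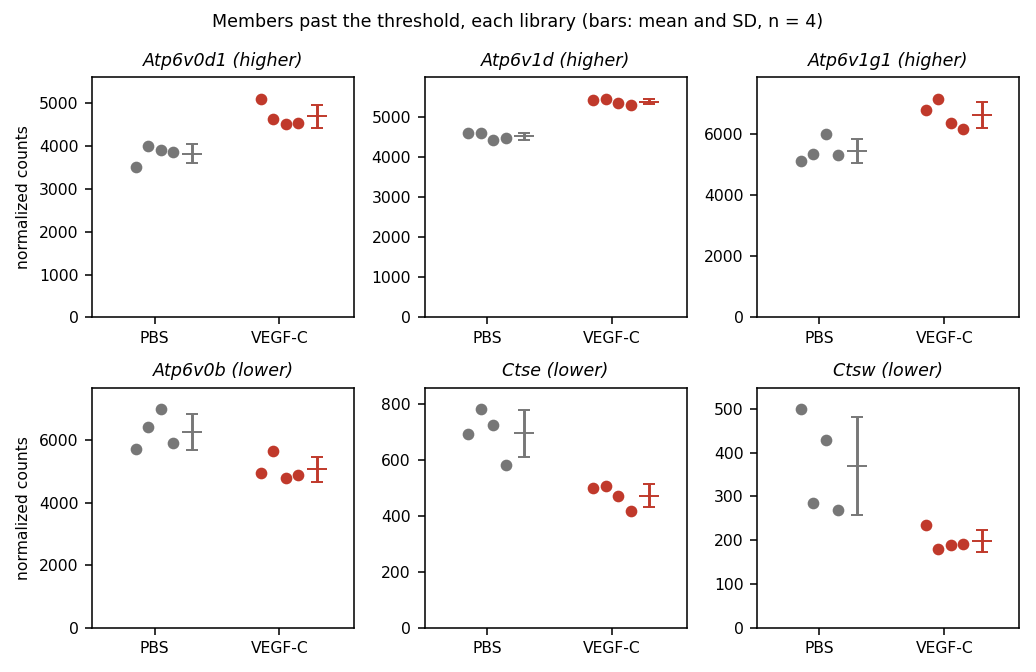
Normalized counts (y axis, from 0) of the 6 members past the threshold in each of the 4 PBS and 4 VEGF-C libraries (points), with mean and SD beside them. In each panel the groups do not overlap; Atp6v1d has the tightest groups, at 4418 to 4596 in PBS and 5297 to 5439 in VEGF-C, and Ctsw the widest PBS group, at 269 to 499.

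Of the 14 cathepsin genes, 0 rose and 2 fell (14.3% called, against 15.7% of all genes). Positive fold changes were seen in 5 (median -0.05), and in 1 with library totals. Both genes that fell are read at low levels in the heart. Ctsw encodes a cysteine protease known from cytotoxic T cells and NK cells. Its counts were 499, 284, 429 and 269 in PBS and 235, 179, 188 and 191 in VEGF-C, so that PBS replicates 1 and 3 stood high. The groups did not overlap. The log2 fold change was -0.84 ± 0.21, so that the level fell by 44.3% (limma adjusted p = 0.0226). Leaving out PBS replicate 3, or any VEGF-C library but replicate 1, ended the call (adjusted p up to 0.0632).

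Ctse encodes cathepsin E, an aspartic protease of endosomes known from the stomach lining and from immune cells. It was read at 691, 781, 726 and 580 normalized counts in PBS and at 498, 507, 469 and 416 in VEGF-C. The groups did not overlap, with PBS replicate 4 the lowest of its group. The log2 fold change was -0.55 ± 0.12, so that the level fell by 31.6% (limma adjusted p = 0.0135). This call held without any 1 library (adjusted p up to 0.0379). It also held under every other scaling, but these shift fold changes down and do not challenge a fall.

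Some markers of lymphocytes and dendritic cells were lower beside these genes. The B cell receptor genes Cd79a (-1.56 ± 0.36) and Cd79b (-1.17 ± 0.28) passed as lower, going from 833 to 298 and from 757 to 348 normalized counts on average. Leaving out VEGF-C replicate 3 ended the call of Cd79a (adjusted p = 0.0526), and that of Cd79b ended without PBS replicate 2 or VEGF-C replicate 3 (up to 0.0574). Of 9 T and NK cell markers 6 had negative fold changes and 0 passed by limma or limma-voom, with 2 at an unadjusted p under 0.05. They summed to 1935 to 2921 in PBS and 1826 to 2567 in VEGF-C. Of 6 mature dendritic cell markers 1 passed as lower, Cd83 (-0.51), a call that ended when replicate 2 or 3 of either group was left out (up to 0.0697). In this list 5 of 6 fold changes were negative (median -0.56), and the exception, Fscn1 (0.38, adjusted p = 0.0798), was the most abundant, at 5510 normalized counts in PBS and 7121 in VEGF-C on average. The list summed to 8074 to 10059 in PBS and 8588 to 10639 in VEGF-C. None of the markers of these lists described here was at 0 in any library. The part of these cells in the decreases of Ctsw and Ctse was not tested.

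The other cysteine cathepsin genes did not pass. Ctsb, a broad-acting protease and the cysteine cathepsin with the highest level per length, was read at 85510, 97403, 115594 and 87189 normalized counts in PBS and at 117552, 91141, 101319 and 95367 in VEGF-C. The groups overlapped over most of their range. Its log2 fold change was 0.08 ± 0.13, with a 95% interval from -0.22 to 0.37 (limma adjusted p = 0.732). Ctss, which trims the invariant chain of MHC class II, ranged from 11847 to 22798 in PBS and from 13538 to 17035 in VEGF-C, with a fold change of -0.01 ± 0.18 (0.974). Ctsl stood at 0.04 ± 0.14, Ctsh at -0.05 ± 0.12, Ctsf at -0.04 ± 0.09, Ctsz at -0.17 ± 0.13 and Ctso at -0.14 ± 0.08. Ctso passed as lower with library totals alone (adjusted p = 0.0182). Ctsc, which activates the serine proteases of cytotoxic cells and neutrophils, had -0.05 ± 0.18. Ctsk, a collagen-cutting protease of osteoclasts and fibroblasts, had 0.30 ± 0.29 (0.510), and -0.04 without PBS replicate 1. The 10 markers of macrophages had 7 negative fold changes. By limma or limma-voom 0 passed, and 2 had an unadjusted p under 0.05. With library totals 2 passed as lower and 1 fold change was positive. These markers summed to 170408 to 269933 normalized counts in PBS and 176397 to 239905 in VEGF-C. Lyz2 held the largest part of this sum, at 129645 in PBS and 122951 in VEGF-C on average.

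Ctsd, the main aspartic protease of the lysosome, had the highest level per length of all members. It was read at 58557, 78026, 99620 and 59855 normalized counts in PBS and at 89462, 78830, 74864 and 61354 in VEGF-C, with overlapping groups. The fold change was 0.06 ± 0.18 (limma adjusted p = 0.846). A protein-coding gene of the same strand, Gm49369, which has no values, shares 34.4% of its annotated exon bases. Ctsa, a serine carboxypeptidase that also shields a galactosidase and a sialidase of the lysosome, ran from 17773 to 20651 in PBS and from 18418 to 21961 in VEGF-C (0.09 ± 0.08, 0.515).

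Ctsg, a serine protease of neutrophil granules, had the most negative fold change of the members but did not pass (-1.57 ± 0.81, limma adjusted p = 0.211). Its counts were 48.8, 427, 222 and 280 in PBS and 29.7, 203, 137 and 15.5 in VEGF-C. The low library of the PBS group was replicate 1, and the 95% interval of the fold change ran from -3.37 to 0.23. All 7 neutrophil markers had negative fold changes, and 1 passed, Csf3r (-0.77; lost without PBS replicate 3 or any 1 VEGF-C library, adjusted p up to 0.0839). Their sum was 15423 to 41528 normalized counts in PBS, again lowest in replicate 1, and 10204 to 32278 in VEGF-C. No neutrophil marker was at 0, and the part of these cells was not tested.

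Among the LAMPs, Lamp1 was read at 31071, 33128, 35047 and 34012 normalized counts in PBS and at 39074, 37579, 39579 and 36824 in VEGF-C. All 4 VEGF-C libraries lay above all 4 PBS libraries, and yet the adjusted p was over the threshold (0.20 ± 0.08, limma adjusted p = 0.100). The authors' deposited table gives it an adjusted p of 0.0266, and with library totals the fold change was 0.01. Lamp2, whose loss causes a heart muscle disease in humans (Danon disease), ran from 9436 to 12831 in PBS and from 11350 to 13892 in VEGF-C (0.15 ± 0.10, 0.344). Lamp3, a marker of mature dendritic cells, was read at 10.4 to 47.1 normalized counts over all 8 libraries, too few to resolve its fold change (0.25 ± 0.42).

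Levels differed between members over more than 3 orders of magnitude when set per kilobase of annotated exon. Ctsd came first in PBS, at 31482 normalized counts per kilobase, then Ctsb (15935), Lamp1 (12454), Ctss (11932) and Ctsz (8331). The first pump genes were Atp6v1g1 (4799) and Atp6v1f (4145), and the last members were Atp6v0a4 (12.0) and Lamp3 (5.71). The catalytic Atp6v1a (507) and Atp6v1h (228) were the lowest V1 genes apart from Atp6v1g2. These lengths count every annotated exon, so genes with long alternative ends come out lower.

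**Figure D4:**
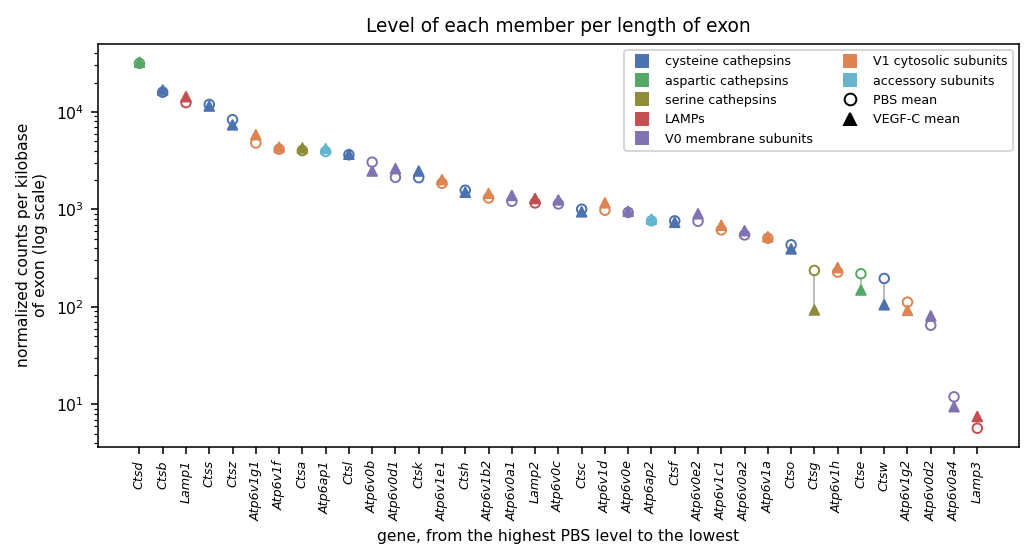
Mean level of each member in PBS (open circles) and VEGF-C (triangles), in normalized counts per kilobase of annotated exon on a log axis, ordered by the PBS level (x axis) and coloured by role. Levels run from 31482 for Ctsd to 5.71 for Lamp3 in PBS, and the gap between circle and triangle is widest for Ctsg, Ctsw and Ctse.

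In pump subunits a, d and G, 1 of the alternative forms read took most of the reads per length. Atp6v0d1 made up 97.1% ± 1.81 of subunit d in PBS and 97.0% ± 1.18 in VEGF-C (SD, n = 4). Atp6v0a1 made up 68.5% ± 1.66 and 69.3% ± 1.87 of the 3 forms of subunit a that the symbol rule takes in. Any form under another kind of symbol was left out of this share, whether or not it has values. Subunit e was nearly even, with Atp6v0e at 55.1% ± 3.19 and 51.5% ± 1.66. Atp6v1g2 fell short of 3% of subunit G in each library, at 2.30% ± 0.40 in PBS and 1.56% ± 0.24 in VEGF-C, and the groups did not overlap in this share or in its complement, that of Atp6v1g1. They overlapped in the other pump shares. Among cathepsins, Ctsd held 38.1% ± 3.39 and 39.2% ± 3.40 of the reads per length and Ctsb 19.6% ± 0.95 and 20.3% ± 1.00. No test was made on these shares.

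PBS replicate 1 stood apart from the other libraries in these genes. It was the lowest of the 8 libraries in 15 of 37 members (40.5%), against 14.8% of all genes, among them Ctsb, Ctsd, Ctsk, Ctsl, Lamp1, Atp6v0d1 and Atp6v1g1. It was the highest in Ctsc, Ctsw and Atp6v1g2. Other PBS libraries also lay at the ends more often than in all genes. PBS replicate 3 was the highest in 9 members (24.3%, against 13.8% of all genes), among them Ctsd, Ctsl and Ctss. PBS replicate 2 was the lowest in 8 (21.6%, against 12.2%). In Ctsk PBS replicate 1 had 1485 normalized counts, where PBS replicates 2 to 4 had 3647 to 3867, and in Ctsl 16930, where they had 24574 to 28176. The summed fibroblast markers of PBS replicate 1 were 307772, where PBS replicates 2 to 4 had 398035 to 434978 and VEGF-C 464573 to 548959. Of these 6 markers 1 passed as higher, Col1a1 (0.69 ± 0.14, limma adjusted p = 0.00926), and 2 had negative fold changes (median 0.09). The highest counts were those of Col1a1 and Col1a2, at 144780 and 151816 in PBS and 233722 and 179629 in VEGF-C on average. The part of the fibroblast markers was not tested. Of 7 osteoclast markers, Ocstamp and Calcr have no values. Of the other 5, 1 passed as higher, Nfatc1 (0.37 ± 0.07, limma adjusted p = 0.00928; not with library totals, 0.119). The remaining fold changes were 0.03 for Itgb3, -0.11 for Oscar, -0.31 for Acp5 and -1.49 for Dcstamp (51.0 normalized counts in PBS and 11.2 in VEGF-C on average, adjusted p = 0.0756). Without PBS replicate 1, 5 of 37 members passed, since Atp6v1g1 lost its call (limma adjusted p = 0.0637). The signs of 8 members that had not passed changed, Ctsk (-0.04), Ctsl (-0.11) and Ctsd (-0.04) among them.

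**Figure D5:**
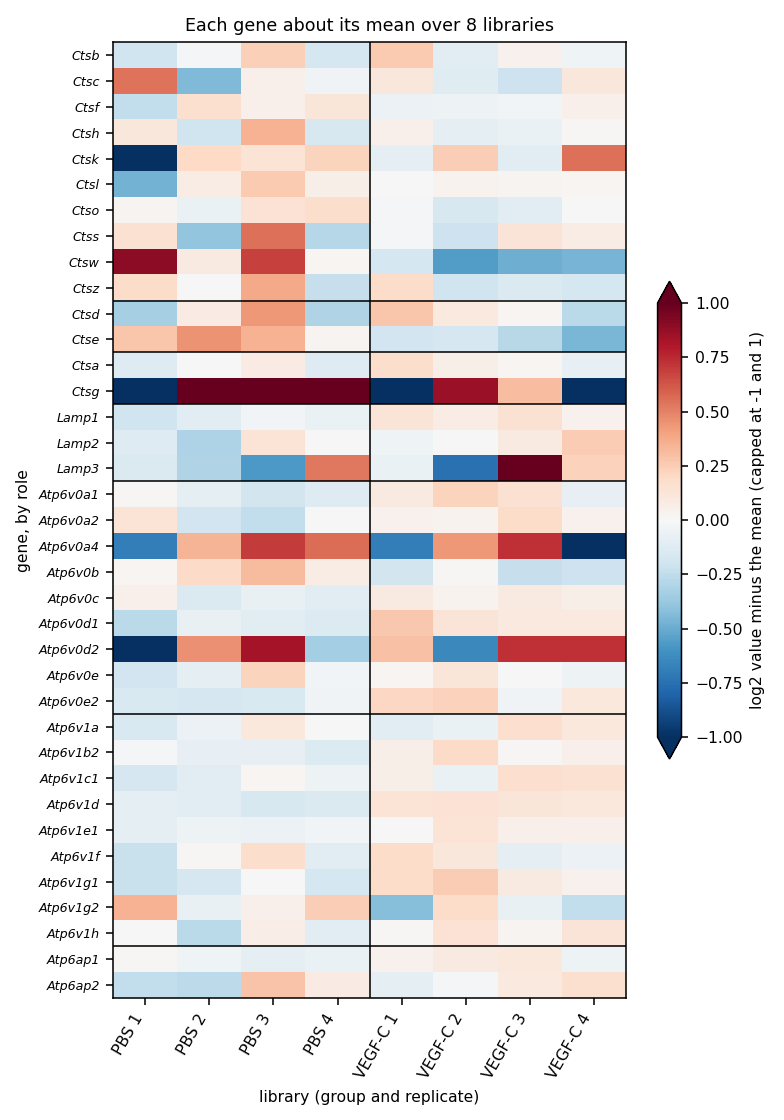
Log2 value of each member (rows, by role) in each library (columns) minus its mean over the 8 libraries, coloured from -1 (blue) to 1 (red). PBS replicate 1 is blue for Ctsk, Ctsl, Ctsg and Atp6v0d2, and the 4 VEGF-C columns are all above the 4 PBS columns for Atp6v1d, Atp6v0d1, Atp6v1g1 and Lamp1.

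Other genes of the pathway were read from 7 lists, whose counts stand against 15.7% of all genes called, 7.05% higher and 8.61% lower. Of 35 lysosomal hydrolases and activators, 2 rose and 1 fell (median -0.0025), fewer than that share of 35 genes. Those that rose were Gaa, the acid glucosidase that degrades glycogen (0.41 ± 0.10), and Smpd1, the acid sphingomyelinase (0.33 ± 0.08); the nuclease Dnase2a fell (-0.42 ± 0.11). Gaa lost its call without VEGF-C replicate 3, Smpd1 without VEGF-C replicate 1 or 3, and Dnase2a when VEGF-C replicate 1 or 3, or PBS replicate 2 or 3, was left out (largest adjusted p 0.0587, 0.0625 and 0.0677). Of 20 lysosomal membrane proteins and channels, 1 rose, Laptm4a (0.28 ± 0.07; lost when replicate 2 of either group or VEGF-C replicate 3 or 4 was left out, up to 0.0841), and 1 fell, the cation channel gene Tpcn2. Tpcn2 went from 1218 to 662 normalized counts on average (-0.88 ± 0.10, limma adjusted p = 0.00077), and the call held without any 1 library. It also held under every scaling, but the other scalings do not challenge a fall. Of 8 measured cathepsin inhibitors 0 passed by limma or limma-voom, and 0 had an unadjusted p under 0.05. The abundant Cst3 stood at 0.07 ± 0.10. With library totals 1 of the 8 passed as lower and 0 had positive fold changes.

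Of 10 pump assembly factors and regulators, 0 rose and 2 fell. Tmem199, an assembly factor of the V-ATPase, fell from 824 to 562 normalized counts on average (-0.56 ± 0.10, limma adjusted p = 0.00739), and Rogdi, a part of the complex that joins V1 to V0, fell from 1705 to 1292 (-0.40 ± 0.08, 0.0114). Both calls held without any 1 library. They also held under every scaling, but the other scalings shift fold changes down and do not challenge a fall. In this list 6 of 10 fold changes were positive (median 0.10; 3 were positive with library totals). Of 19 genes of the TFEB family and lysosomal mTORC1 control, 4 rose (2 with upper-quartile factors, 1 with library totals) and 0 fell, against 7.05% and 8.61% of all genes. Rragd, a Rag GTPase that recruits mTORC1 to lysosomes, went from 5863 to 8266 normalized counts (0.49 ± 0.10, adjusted p = 0.0097) and was called without any 1 library and under every scaling. The others were Fnip2 (0.41), Rragc (0.28) and Rheb (0.23), each of which lost its call without any of 5 or more single libraries (adjusted p up to 0.0694, 0.0819 and 0.0952) and with library totals. Tfeb itself stood at 0.21 ± 0.09 (0.122), Tfe3 at -0.05, Mitf at 0.06 and Tfec at -0.08.

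Of 12 sorting genes 2 rose: Vps26a, a retromer subunit (0.30 ± 0.07, limma adjusted p = 0.0147), which held without any 1 library, and Gnptab, which makes the mannose 6-phosphate tag (0.31 ± 0.09, 0.0365), which did not (up to 0.0984). Of 22 autophagy genes 5 rose (2 with upper-quartile factors, 0 with library totals) and 0 fell, against 7.05% and 8.61% of all genes, and 19 had positive fold changes (10 with library totals). The 4 with the smallest p were Wipi1 (0.39), Atg9a (0.44), Ulk1 (0.29) and Atg3 (0.23), and each call was lost without 3 or more single libraries (adjusted p up to 0.0826, 0.0962, 0.0968 and 0.118). With library totals 0 genes of the hydrolase, membrane, sorting and autophagy lists were called higher and 7, 7, 0 and 1 lower; the assembly list had 0 higher and 4 lower, and the TFEB and mTORC1 list 1 higher and 2 lower.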

How the data were processed

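The submitters' processing notes name Trim Galore 0.6.10, STAR 2.7.10a, featureCounts of Subread 2.0.1, DESeq2 1.38.3 and the build GRCm39; annotation and strand setting are not stated. The authors deposited log2 values. Solving them for the reads behind low values showed log2(x + 4), with x the reads of a gene over a size factor of the library (a normalized count here); within 0.01 reads, 100% of the values tried came out whole. The authors' log2 fold changes and adjusted p-values are in the deposited table too. The table lists 56941 genes, 38106 of them without values.

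limma 3.58.1 (R 4.3.3) was fitted to the log2 values of all 18835 genes with values, with treatment as the factor, 6 residual degrees of freedom, a mean-variance trend and Benjamini-Hochberg adjustment over all genes (two-sided, threshold 0.05). The test was checked on simulated data. Fold changes are VEGF-C against PBS on the log2(x + 4) scale, which understates changes of genes with few reads. Replicate numbers are the column numbers, which tie to no animal. Exon lengths and overlaps came from GENCODE M21, which is of another build than the values, and promoter windows from RefSeq.

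Alternatives were 3 other scalings computed from the recovered reads, a pseudocount of 1, limma-voom with and without sample quality weights, a robust variance fit, a filter at a mean of 1 CPM, the authors' own values and leaving out each library. All members are named; from each other list, members past the threshold, at most the 4 with the smallest p. Members and lists were chosen with earlier results of these data known. 1 marker, and the sum and count of its list, are not reported here.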

Additional observations from a re-analysis of the deposited data

Results flagged for a closer look

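Of 74 sets of 4 values (37 members in each group), 4 held a library whose gap to its nearest neighbour took up more of the group's range than Dixon's 95% critical value allows; chance gives about 1 set in 20. Ctsk in PBS replicate 1 had a log2 value of 10.54, against 11.83 to 11.92 in the other PBS libraries. Ctsz in VEGF-C replicate 1 had 13.63, against 13.25 to 13.31. Atp6v0a2 in VEGF-C replicate 3 had 12.10, against 11.95 to 11.96. Atp6v0e2 in PBS replicate 4 had 10.91, against 10.78 to 10.79.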

How the results depend on the processing

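No paired analysis was possible because the sample labels share no numbers between the groups, and the column numbers 1 to 4, which both groups carry, are tied to no animal, litter or batch. With TMM-type factors, a pseudocount of 1, limma-voom with or without quality weights, robust variances and the filter, 6 members passed, 3 in each direction. Members called higher were 1 with upper-quartile factors, 0 with library totals and 5 in the authors' deposited table. Leaving out 1 library gave 3 to 5 members past the threshold, 1 to 3 higher and 1 to 3 lower, and 1684 to 2906 genes in all, 591 to 1268 of them higher. Genes called higher were 797 with upper-quartile factors and 243 with library totals, and with the latter 3572 were lower. Library totals moved the median fold changes to -0.24 for cysteine cathepsins and for all cathepsins, 0.0091 for LAMPs, -0.037 for V1 subunits, -0.11 for accessory subunits, -0.048 for all pump genes, -0.12 for all members and -0.19 for all genes. With upper-quartile factors the V1 median was 0.10 and that of all genes -0.053, and with the filter that of all genes was 0.036.

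Signs that changed were all of members that had not passed. With library totals these were Ctsb (-0.12), Ctsl (-0.15), Ctsd (-0.13), Ctsa (-0.11), Lamp2 (-0.040), Atp6v0a2 (-0.041), Atp6v0c (-0.055), Atp6v0e (-0.15), Atp6v1a (-0.14), Atp6v1b2 (-0.036), Atp6v1c1 (-0.037), Atp6v1e1 (-0.071), Atp6v1f (-0.12), Atp6v1h (-0.034), Atp6ap1 (-0.10) and Atp6ap2 (-0.12). With upper-quartile factors they were Ctsl (-0.016), Atp6v0e (-0.010) and Atp6v1a (-0.0065), and with quality weights Ctsl (-0.00077) and Ctss (0.095). Leaving out 1 library, fold changes ran from -0.0045 to 0.18 for Atp6ap2, -0.037 to 0.93 for Atp6v0d2, -0.011 to 0.13 for Atp6v0e, -0.21 to 0.12 for Ctsc, -0.039 to 0.22 for Ctsd, -0.13 to 0.0043 for Ctsf, -0.13 to 0.054 for Ctsh, -0.037 to 0.42 for Ctsk, -0.11 to 0.13 for Ctsl, -0.15 to 0.17 for Ctss and -0.073 to 0.54 for Lamp3. The cause of these changes was not tested. At these depths members under about 100 normalized counts, Lamp3 and Atp6v0a4, could not resolve a change of the size seen in the pump genes. Low counts were not the only limit. Standard errors were 0.81 for Ctsg, 0.56 for Atp6v0d2 and 0.29 for Ctsk. The 95% intervals of Ctsb (-0.22 to 0.37), Ctsd (-0.34 to 0.47) and Ctss (-0.42 to 0.40) also included a change of that size.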

Other observations

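A pseudogene of the proteolipid gene, Atp6v0c-ps2, left out by the rule, was read at 2031 normalized counts on average in PBS and 2477 in VEGF-C (log2 fold change 0.29 ± 0.10, limma adjusted p = 0.0661). Atp6v0c itself had 3854 and 4233, and the split of reads between such near-identical copies is uncertain. The 9 members with a CACGTG in the promoter window had a median fold change of 0.05, and the 18 with a window but without the motif 0.08.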
